A study of Homo sapiens with 6 samples.

Results

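TRIM28 lies in a dense cluster of genes at the end of the long arm of chromosome 19, and 5 genes of that cluster, UBE2M, CHMP2A, MZF1, ZBTB45 and SLC27A5, were followed after TRIM28 was silenced. They were chosen by name and position, by a rule that uses no counts but was written with earlier results of these data known, and are 5 of the 78932 genes in the table and 5 of the 18474 that had enough reads to test. The cells were T24, a human bladder carcinoma line that is labelled a urothelial carcinoma line. There were 3 libraries of cells transfected with a control siRNA (siNC) and 3 of cells transfected with siRNA against TRIM28 (siTRIM28), each labelled a biological replicate, all from batch 1 as the labels give it. No drug, time course or second cell line was part of the comparison, all cells went through transfection, and the sequence and number of the TRIM28 siRNAs behind these libraries are not given in the sources used here. RNA was selected by its poly(A) tail, and total counts per library ran from 11712623 to 14018052.

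TRIM28, also called KAP1, is a corepressor that zinc finger proteins of the KRAB family bring to DNA, where it gathers histone methylation machinery and keeps repeats and some genes silent. An siRNA acts in another way, through cleavage of the matching messenger RNA, so the TRIM28 gene itself stays in place while its transcript is lost. The 5 neighbours serve unrelated tasks. UBE2M is the E2 enzyme that hands the ubiquitin-like protein NEDD8 to cullins. CHMP2A is a subunit of ESCRT-III, the filament that cuts membranes from within during endosome sorting, cell abscission and nuclear envelope closure. MZF1 and ZBTB45 are zinc finger transcription factors, of the SCAN and BTB classes. SLC27A5 activates bile acids and very long chain fatty acids with coenzyme A and is known mainly from liver. The comparison of siTRIM28 with siNC asks whether the RNA of these genes differed once the TRIM28 transcript had fallen.

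In the coordinates of the count table, which use the GRCh38 build, TRIM28 runs from 58544064 to 58550649 on the plus strand of chromosome 19. All 5 neighbours are on the minus strand. CHMP2A (58551452 to 58555096) is the closest, with its 3′ end 802 bases past the 3′ end of TRIM28, so the pair is read towards each other. UBE2M (58555712 to 58558954) follows after a gap of 5062 bases from TRIM28, and MZF1 (58561931 to 58573575) after 11281 bases. On the other side ZBTB45 (58513530 to 58538911) ends 5152 bases before TRIM28 and is read away from it. SLC27A5 (58479512 to 58511992) lies 32071 bases before TRIM28. Distances depend on the annotated ends: of ZBTB45's 3 starts in RefSeq, the outermost is 5153 bases from the start of TRIM28 and the others are 24254 and 24462 bases away.

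**Figure D1:**
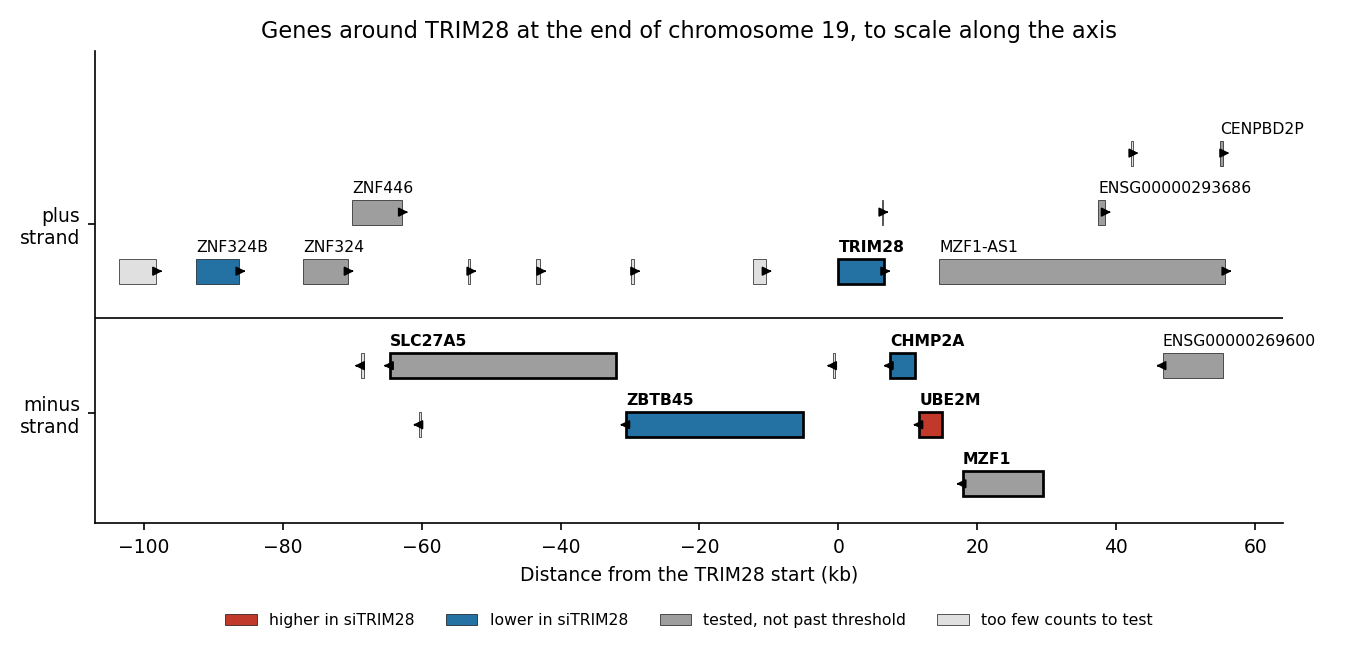
Genes within 100 kb of TRIM28, drawn to scale against the distance from the TRIM28 start in kb, with plus-strand genes above the line and minus-strand genes below it and arrowheads at the 3′ ends. Colours give the test of siTRIM28 against siNC and heavy outlines mark TRIM28 and the 5 neighbours: CHMP2A and ZBTB45 were lower, UBE2M was higher, and MZF1 and SLC27A5 did not pass the threshold.

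Start regions were read from RefSeq (GRCh38.p14), which gave 8 windows of 300 bases for the 5 neighbours, each with 250 bases before a start and 50 from it on. TRIM28 had no window in the table. For the called genes CHMP2A and ZBTB45, the parts of the windows before a start and outside every exon of GENCODE v29 were taken. That left 231 bases for CHMP2A at chr19:58555125-58555355 and 250 bases for the outermost start of ZBTB45 at chr19:58538912-58539161, both on the minus strand and written 5′ to 3′. A further part, of 14 bases at the innermost ZBTB45 start, was too short to show. The stretch before the UBE2M start was inside an annotated exon and is not shown. Capitals mark matches to 4 motifs, searched on both strands: GGGCGG (the GC box bound by SP1), CCGGAAG (ETS), ATGGCGG (YY1) and GCGCATGC (NRF1). Matches to different motifs may share bases.
CHMP2A: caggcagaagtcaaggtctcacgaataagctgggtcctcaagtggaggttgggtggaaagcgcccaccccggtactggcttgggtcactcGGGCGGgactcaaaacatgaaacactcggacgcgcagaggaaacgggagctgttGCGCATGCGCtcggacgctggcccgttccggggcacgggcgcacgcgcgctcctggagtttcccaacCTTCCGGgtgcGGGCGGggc
ZBTB45: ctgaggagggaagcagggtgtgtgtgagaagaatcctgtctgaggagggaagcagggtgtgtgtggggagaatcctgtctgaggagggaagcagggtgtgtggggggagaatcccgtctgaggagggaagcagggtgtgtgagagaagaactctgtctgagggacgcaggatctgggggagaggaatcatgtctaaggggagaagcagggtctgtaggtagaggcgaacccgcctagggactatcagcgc

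The CHMP2A stretch held 2 GC boxes, 1 ETS match and 2 NRF1 matches that overlap on opposite strands. The outermost ZBTB45 stretch held none of the 4 motifs and instead repeats a unit that opens with ctgaggaggg. The other ZBTB45 windows, near the inner starts, held 2 ETS matches in one and 1 ETS match with 1 GC box in the other. The UBE2M window held 3 GC boxes. One MZF1 window held 1 GC box and the other 2 NRF1 matches, whereas the SLC27A5 window held no match. Of the 35116 promoters in the table, 45.0% held a GC box, 10.3% an ETS match, 5.55% a YY1 match and 3.05% an NRF1 match. These are matches of letters and say nothing of which factor is bound.

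The targeted gene was measured first. TRIM28 (ENSG00000130726) had 1419, 1393 and 1382 reads in the siNC libraries and 130, 96 and 109 in the siTRIM28 libraries. Levels are given as CPM, the counts scaled by library size and edgeR's TMM factors. For TRIM28 the mean was 104 ± 4.09 CPM with siNC and 8.87 ± 0.658 CPM with siTRIM28 (SD, n = 3 per group). TRIM28 RNA in siTRIM28 was therefore 8.55% of the siNC level, a log2 fold change of -3.54 ± 0.07 (SE, adjusted p = 1.03e-10, edgeR quasi-likelihood test, Benjamini-Hochberg). TRIM28 was low in every library labelled siTRIM28 and high in every library labelled siNC. Libraries within a group were not equally alike: siNC 3 and siTRIM28 1 stood apart from the other two of their groups, with a chi-square per degree of freedom of 4.17 to 6.25 against 1.08 and 1.22 within the closer pairs. Read sampling alone gives a value near 1, so the closer pairs showed little spread beyond it. An SD or p-value from 3 libraries per group may therefore rest on fewer independent units.

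Of the 5 neighbours, 1 was higher in siTRIM28 (UBE2M) and 2 were lower (CHMP2A and ZBTB45) at an adjusted p under 0.05, while MZF1 and SLC27A5 did not pass. Over all genes tested 21.3% were called higher and 20.5% lower, so with 5 genes these counts do not mark the neighbours as a group. By the ranges of the libraries, 1 neighbour had all siTRIM28 values above all siNC values and 3 had them all below, beside 26.3% and 25.7% of all genes tested. The median log2 fold change of the neighbours was -0.46, against 0.02 over all genes tested. The fall of TRIM28 was far larger than any of these differences, and CHMP2A and UBE2M, which adjoin each other, went in opposite directions. In bulk RNA a change per cell and a change in the mix of cells cannot be told apart.

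**Figure D2:**
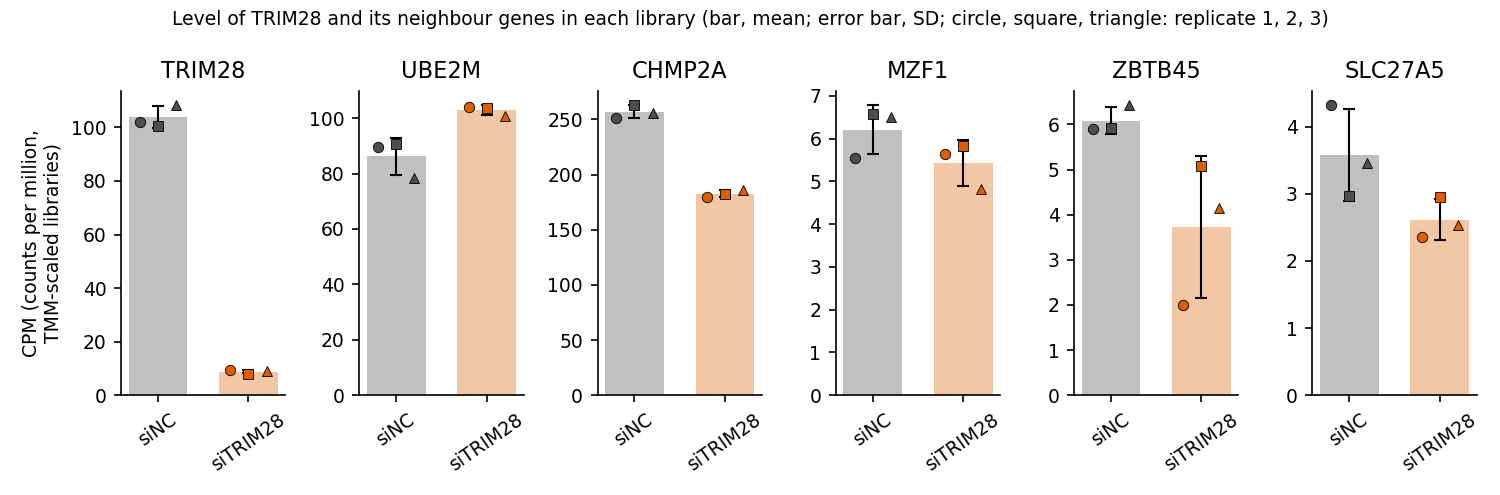
Level of TRIM28 and the 5 neighbours in CPM (vertical axis from 0) in the siNC libraries (grey) and the siTRIM28 libraries (orange); bars are means, error bars SD (n = 3 per group), and circle, square and triangle are replicates 1, 2 and 3. The groups do not overlap for TRIM28, UBE2M, CHMP2A, ZBTB45 or SLC27A5, and siTRIM28 replicate 1 of ZBTB45 sits far below the others.

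CHMP2A (ENSG00000130724) was the most abundant of the neighbours and the one measured most precisely. It had 3490, 3641 and 3264 reads in siNC and 2516, 2164 and 2201 in siTRIM28. In CPM the siNC libraries read 251, 263 and 256 and the siTRIM28 libraries 180, 183 and 186, so that the groups were well apart and each was tight. The level was 257 ± 5.90 in siNC and 183 ± 3.10 in siTRIM28 (SD, n = 3), which is 71.2% of the control. The log2 fold change was -0.49 ± 0.04 (SE, 95% interval -0.58 to -0.40, adjusted p = 1.98e-06, edgeR). Only 11.4% of tested genes had a lower log2 fold change. With the closer libraries of each group summed into 1, CHMP2A had -0.52 (adjusted p = 0.000625, edgeR). Its 3′ end is the one nearest to TRIM28, and the count table's span ends 802 bases from that of TRIM28.

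UBE2M (ENSG00000130725) went the other way. It had 1246, 1253 and 1001 reads in siNC and 1458, 1228 and 1192 in siTRIM28, and these raw counts overlap because the libraries differ in depth. Scaled for depth, siNC gave 89.7, 90.5 and 78.5 CPM and siTRIM28 gave 104, 104 and 101 CPM. The siNC 3 library was the low one, and all siTRIM28 libraries were above all siNC libraries. The mean rose from 86.2 ± 6.72 to 103 ± 1.89 CPM (SD, n = 3), by 19.3%, with a log2 fold change of 0.25 ± 0.06 (SE, 95% interval 0.12 to 0.38, adjusted p = 0.00470, edgeR). Without siNC 3 the log2 fold change was 0.19 (adjusted p = 0.0182). With the closer libraries of each group summed into 1 it stayed at 0.26, with an adjusted p of 0.0497.

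ZBTB45 (ENSG00000119574) lies on the other side of TRIM28 and, like SLC27A5, is read away from it. It had 82 reads in each siNC library and 28, 60 and 49 in the siTRIM28 libraries. This corresponds to 5.90, 5.92 and 6.43 CPM in siNC and 2.00, 5.07 and 4.14 CPM in siTRIM28. All siTRIM28 libraries were below all siNC libraries, but they were spread over a wide range, with a coefficient of variation of 42.1% against 4.90% in siNC, and siTRIM28 1 was by far the lowest. The log2 fold change was -0.73 ± 0.25 (SE, 95% interval -1.27 to -0.19, adjusted p = 0.0331, edgeR). The siTRIM28 1 library decided the size of this value. Without it the log2 fold change was -0.40 and the adjusted p was 0.0685, and without siTRIM28 2 it was -1.03 with an adjusted p of 0.00810. The call was also lost without siNC 1 (adjusted p = 0.0693), siNC 2 (0.0683), siNC 3 (0.0806) or siTRIM28 3 (0.0506), so that leaving out any one of 5 of the 6 libraries ended it.

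SLC27A5 (ENSG00000083807) and MZF1 (ENSG00000099326) were both read at a low level and did not pass the threshold. SLC27A5 had 60, 41 and 44 reads in siNC and 33, 35 and 30 in siTRIM28, or 4.32, 2.96 and 3.45 CPM against 2.36, 2.96 and 2.53 CPM. The groups touched without crossing, since siNC 2 (2.961 CPM) was barely above siTRIM28 2 (2.956 CPM). Its log2 fold change was -0.46 ± 0.20 (SE, 95% interval -0.89 to -0.03, adjusted p = 0.0842, edgeR). MZF1 had 77, 91 and 83 reads in siNC and 79, 69 and 57 in siTRIM28, or 5.54, 6.57 and 6.51 CPM against 5.64, 5.83 and 4.81 CPM. Here the libraries overlapped, and the log2 fold change was -0.19 ± 0.14 (SE, 95% interval -0.50 to 0.12, adjusted p = 0.308, edgeR). The interval of SLC27A5, which is not adjusted over genes, narrowly left out 0 and reached past the estimate for ZBTB45, while that of MZF1 held 0. A second test, the exact two-sided permutation of log2 CPM, gave p = 0.1, the smallest that 3 libraries against 3 allow, for TRIM28, UBE2M, CHMP2A, ZBTB45 and SLC27A5, and p = 0.3 for MZF1.

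**Figure D3:**
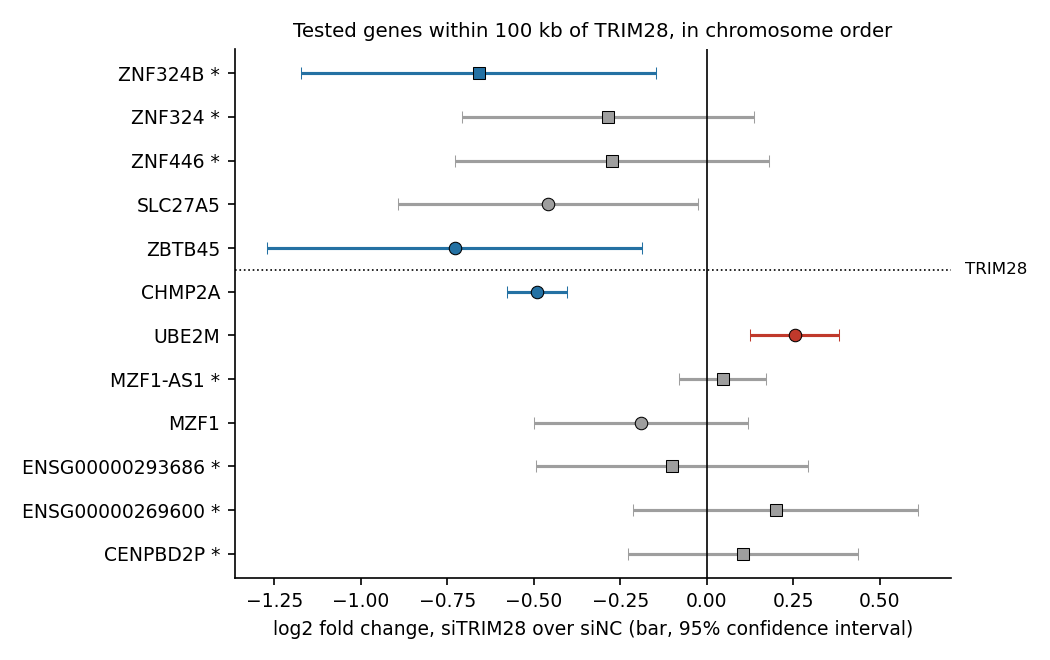
Log2 fold change of siTRIM28 over siNC (horizontal axis) with its 95% confidence interval for the 12 tested genes within 100 kb of TRIM28, in chromosome order with the place of TRIM28 dotted; circles are the 5 neighbours, squares with an asterisk the other genes, red is higher, blue lower and grey not past the threshold. CHMP2A and UBE2M have the narrow intervals on either side of 0, while ZBTB45, SLC27A5 and ZNF324B lie to the left with wide ones.

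The neighbours also differed in level by more than their spread. Divided by the gene length in the table, in CPM per kb, siNC cells gave 70.3 ± 1.61 for CHMP2A, 49.5 ± 3.86 for UBE2M, 2.02 ± 0.10 for ZBTB45, 0.933 ± 0.087 for MZF1 and 0.446 ± 0.086 for SLC27A5 (SD, n = 3). TRIM28 itself stood at 24.1 ± 0.95 CPM per kb, between UBE2M and ZBTB45. No library of one gene reached the range of the next in this order. In siTRIM28 cells the order of the upper pair depended on the length used. With the table's lengths UBE2M stood at 59.0 ± 1.08 and CHMP2A at 50.02 ± 0.85 CPM per kb, but with the exonic bases of GENCODE v29, tried after the values were seen, UBE2M was at 56.2 ± 1.03 and CHMP2A at 85.8 ± 1.46, so no turn in their order can be read. The order in siNC was the same with both lengths. With the table's lengths ZBTB45 at 1.24 ± 0.52 and MZF1 at 0.816 ± 0.081 CPM per kb overlapped in siTRIM28, through siTRIM28 1. The table gives 565 genes, CHMP2A among them, a length longer than their span.

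To compare the responses of the neighbours with each other, the log2 ratio of each pair was taken within every library, 10 pairs in all, and the siTRIM28 and siNC libraries were compared. In 6 of the 10 pairs the groups did not overlap. Of all genes tested, taken singly, 26.3% were higher and 25.7% lower without overlap, and no such share was taken for pairs. The 10 pairs reuse the same 5 genes, and 4 of the 6 hold UBE2M, the only neighbour called higher, so the count is a description only. UBE2M stood apart from each of the other 4, with a difference in log2 fold change of 0.75 against CHMP2A and 1.03 against ZBTB45. CHMP2A against MZF1 differed by -0.30 and MZF1 against ZBTB45 by 0.59. The values with ZBTB45 rested on siTRIM28 1: without it UBE2M against ZBTB45 fell to 0.64, below UBE2M against CHMP2A at 0.72, and MZF1 against ZBTB45 fell to 0.18. CHMP2A against SLC27A5 differed by only -0.07, and these overlapped. With 3 libraries against 3, a two-sided exact permutation test cannot go below p = 0.1, and the smallest value after adjustment over the 10 pairs was 0.167, so no pair could pass.

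Several of these genes share sequence with others, which limits how sure a count is. The whole MZF1 span lies inside the antisense gene MZF1-AS1, with 1181 of its 6691 exonic bases in GENCODE v29 shared. MZF1-AS1 was read at 44.4 ± 1.12 CPM in siNC and 45.8 ± 0.94 CPM in siTRIM28 (SD, n = 3, log2 fold change 0.05, adjusted p = 0.555, edgeR), several times the CPM of MZF1. The library kit keeps strand, but the strand setting of the counting is not given in the sources used here, so reads of MZF1 and MZF1-AS1 cannot be told apart with certainty. MZF1-AS1 also overlaps UBE2M by 364 bases of span in the coordinates of the counts. In GENCODE v29 no exonic base of UBE2M was shared. The annotation release behind the counts is not given, so whether exonic bases were shared in it is not known. SLC27A5 overlaps ZNF446 on the plus strand, with 1131 of 8025 exonic bases shared, and smaller parts of it lie over RN7SL693P, RNU6-1337P and ENSG00000273901, which had 0 counts in all libraries. ZBTB45 overlaps ENSG00000305010, with 0 counts, and ENSG00000307855, with 0 to 4 counts per library. Copies elsewhere were read too: UBE2MP1 on chromosome 16 had 3 to 8 counts per library and was not tested. ZBTB45P2 on chromosome 2 had 56, 50 and 38 reads in siNC and 49, 59 and 49 in siTRIM28 (log2 fold change 0.23, adjusted p = 0.345, edgeR), with no fall like that of ZBTB45. ZBTB45P1, also on chromosome 2, had 34, 25 and 20 against 22, 21 and 12 reads (-0.42, adjusted p = 0.248, edgeR).

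Around the 5 neighbours, 17 other genes lie within 100000 bases of TRIM28, of which 7 had enough reads to test. None was called higher and 1 (14.3%) was called lower, beside 21.3% and 20.5% of all genes tested, with a median log2 fold change of -0.10, and 5 of the 17 had no read at all. At an unadjusted p under 0.05 the counts were the same in edgeR (0 higher, 1 lower), limma-voom called 0 higher and 1 lower, and DESeq2 called none in either direction, with 1 lower unadjusted. The one lower gene was ZNF324B, a KRAB zinc finger gene 86230 bases before TRIM28, with 40, 35 and 49 reads in siNC and 25, 29 and 19 in siTRIM28 (log2 fold change -0.66 ± 0.23, SE, adjusted p = 0.0405, edgeR). ZNF324 (-0.28, adjusted p = 0.264, edgeR) and ZNF446 (-0.27, adjusted p = 0.320, edgeR), the zinc finger genes between ZNF324B and SLC27A5, did not pass. Past MZF1 the tested transcripts were ENSG00000293686 (-0.10), ENSG00000269600 (0.20) and the pseudogene CENPBD2P (0.10), with adjusted p from 0.431 to 0.690 (edgeR). Each lies inside the span of MZF1-AS1, ENSG00000293686 and CENPBD2P on its strand, so their reads may not be separate from those of MZF1-AS1. All 5 tested genes before TRIM28 had negative log2 fold changes and those after it had both signs, beside 8955 negative of the 18474 genes tested. Of these 5 only ZBTB45 and ZNF324B passed the threshold. The difference between the sides was not tested. In order of the gap to TRIM28, the called genes were CHMP2A at 802 bases (lower), UBE2M at 5062 bases (higher), ZBTB45 at 5152 bases (lower) and ZNF324B at 86230 bases (lower). The calls of ZBTB45 and ZNF324B were lost under several other settings. A relation of size to distance was not tested. Within 200000 bases 17 of 38 other genes were tested, with 1 higher and 3 lower.

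Each neighbour with a defined pathway was set beside the other genes of that pathway. Neddylation attaches NEDD8 to cullins in a chain from the E1 enzyme (NAE1 and UBA3) through UBE2M or UBE2F to the RING proteins RBX1 and RNF7. Of 20 other neddylation genes 19 were tested, and 3 (15.8%) were higher, 6 (31.6%) lower and 10 not past, beside 21.3% higher and 20.5% lower of all genes tested, with a median log2 fold change of -0.03. DESeq2 called 1 higher and 5 lower. The higher ones included the cullin CUL4B (94.8 ± 5.25 CPM with siNC and 119 ± 3.90 with siTRIM28, higher by 0.32 on the log2 scale, adjusted p = 0.000446, edgeR) and DCUN1D4, a co-E3 of the reaction (0.26, adjusted p = 0.0250, edgeR). The cullin CUL5 fell from 92.1 ± 2.29 to 45.8 ± 2.73 CPM (-1.01 on the log2 scale, adjusted p = 1.37e-07, edgeR), and DCUN1D1, another co-E3, from 53.3 ± 0.63 to 29.9 ± 1.69 CPM (-0.84, adjusted p = 1.08e-06, edgeR). NEDD8 and UBE2F, the other E2 that carries it, were singled out after their values were seen. NEDD8 fell from 414 ± 17.3 to 237 ± 58.5 CPM (-0.80, adjusted p = 0.000305, edgeR). The fall was uneven, with 5776, 5954 and 5046 reads in siNC and 4264, 2444 and 2371 in siTRIM28, and siTRIM28 1 fell least. UBE2F fell from 5.99 ± 0.33 to 3.87 ± 0.72 CPM (-0.62, adjusted p = 0.00934, edgeR). Of the RING proteins, RBX1 (-0.26, adjusted p = 0.176, edgeR) and RNF7 (-0.17, adjusted p = 0.101, edgeR) did not pass.

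CHMP2A was not alone among ESCRT-III genes in being lower. Of 14 other genes of the complex and of its disassembly enzymes, all tested, 5 (35.7%) were lower, 2 (14.3%) higher and 7 not past, with a median log2 fold change of -0.14, beside 20.5% lower and 21.3% higher of all genes tested. CHMP7, which starts ESCRT-III assembly at the nuclear envelope, fell from 117 ± 3.13 to 39.3 ± 2.21 CPM (-1.57 on the log2 scale, adjusted p = 5.83e-09, edgeR). CHMP1A, a late subunit, fell from 17.0 ± 1.60 to 9.42 ± 0.34 CPM (-0.85, adjusted p = 1.89e-05, edgeR). CHMP2B, the paralogue of CHMP2A on another chromosome, was looked up after the values were seen and fell by nearly the same amount as CHMP2A, with a log2 fold change of -0.53 ± 0.08 (SE, adjusted p = 0.000226, edgeR) beside -0.49 ± 0.04. The higher ones were VTA1, a cofactor of the VPS4 ATPase (0.40, adjusted p = 2.88e-05, edgeR), and CHMP1B (0.33, adjusted p = 0.00214, edgeR).

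For SLC27A5 the list held the other fatty acid transporters of its family and the enzymes of bile acid synthesis. Only 8 of 15 had enough reads to test, and 0 were higher, 2 (25%) lower and 6 not past, with a median log2 fold change of -0.09. Over all genes tested 21.3% were higher and 20.5% lower. At an unadjusted p under 0.05 there were 0 higher in edgeR, and DESeq2 and limma-voom called 0 higher too. SLC27A6, a family member with too few reads to test, had 0, 2 and 3 reads in siNC and 7, 6 and 7 in siTRIM28, and was the 1 further call, higher, when no count filter was used. The 2 lower genes act on the side chain of bile acid precursors and branched fatty acids in peroxisomes. AMACR, a racemase, fell from 13.6 ± 0.58 to 8.08 ± 0.86 CPM (-0.75, adjusted p = 9.17e-05, edgeR) and SCP2, a thiolase and sterol carrier, from 79.8 ± 2.40 to 64.5 ± 5.36 CPM (-0.31, adjusted p = 0.00243, edgeR). BAAT, which joins activated bile acids to amino acids, and CYP7B1 had no read. Liver markers were close to absent in these cells, with ALB and APOB together at 0 to 0.217 CPM in each library.

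**Figure D4:**
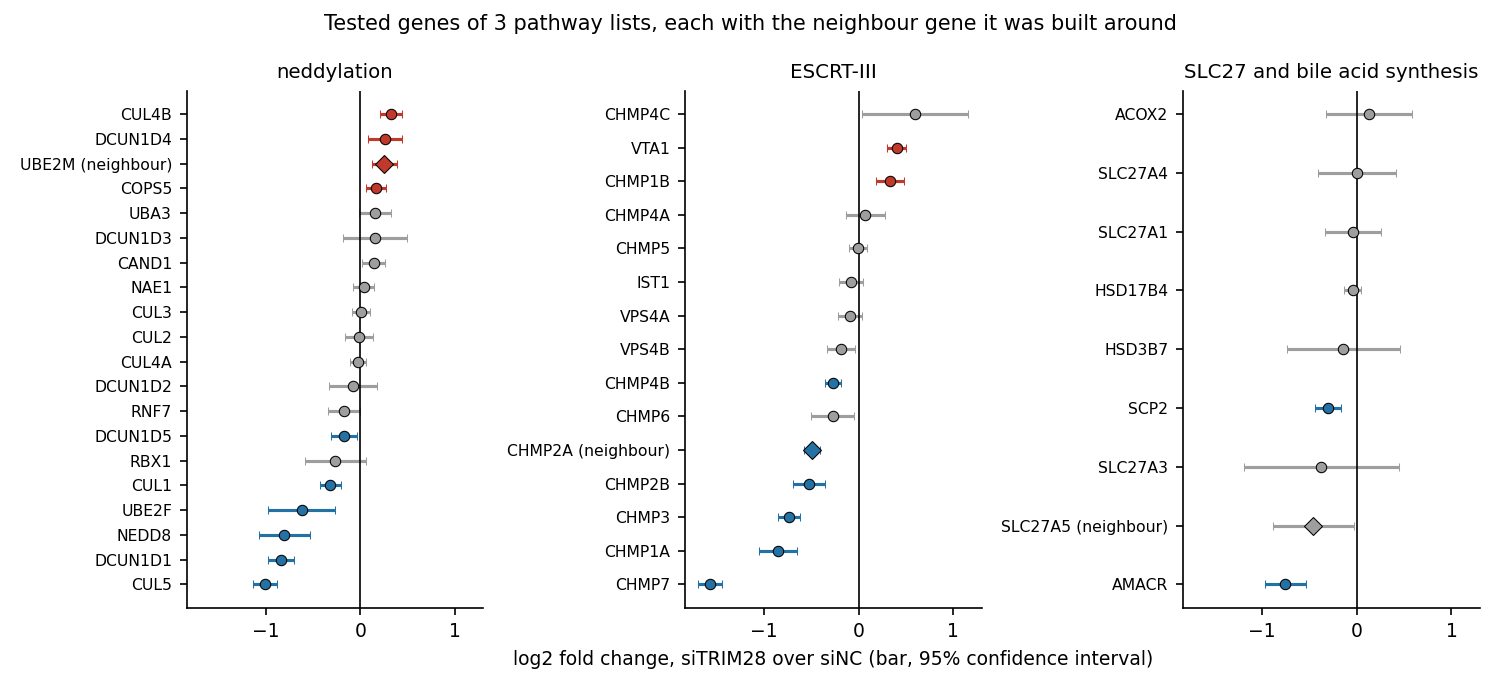
Log2 fold change of siTRIM28 over siNC (horizontal axis) with 95% confidence intervals for the tested genes of the neddylation, ESCRT-III and SLC27 and bile acid lists, each with its neighbour gene as a diamond; red is higher, blue lower and grey not past the threshold. UBE2M sits near the top of the neddylation list, which spans from CUL5 at -1.01 to CUL4B at 0.32, and CHMP2A sits with CHMP2B in the lower part of the ESCRT-III list.

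For each neighbour, the genes with the most similar pattern over the 6 libraries lay outside the locus, which the search made likely beforehand. Few of the genes searched came from the locus, and ZNF324B, ZNF324 and ZNF446 had too few reads to be searched. Where the closest genes lay therefore does not test for a shared response within the locus. Likeness was the mean absolute difference in log2 CPM after each gene was centred on its own siNC mean, over genes with a mean of at least 50 counts (12827 others, or 12828 for SLC27A5). The closest to CHMP2A were KLHL9 and BNC2, both on chromosome 9, at 0.014 and 0.017. UBE2M was most like ENSG00000268047 on chromosome 19 (0.022) and ENSG00000266560 on chromosome X (0.026). MZF1 was most like ENSG00000269179 on chromosome 19 (0.018) and LRRC8D on chromosome 1 (0.035). SLC27A5 was most like NSL1 (0.069) and GPRASP3 (0.070), and ZBTB45 had no close match, with HMGB1P6 and TSPO at 0.142 and 0.143. Among the neighbours the nearest pair was CHMP2A and SLC27A5, at 0.152. SLC27A5 was itself under the limit of 50 counts, and by its value would have ranked 2375 among the genes most like CHMP2A. CHMP2A ranked 506 among those most like SLC27A5. The 6 libraries share their group means and depth, so these values describe and do not test.

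The identity of the cells was checked by markers. Of the 4 epithelial keratins 3 had enough reads to test, with the summed list at 189 to 196 CPM in siNC and 207 to 214 CPM in siTRIM28. Of the 5 markers of urothelial differentiation only UPK1A did, and it was called higher, with means of 0.874 CPM in siNC and 3.41 CPM in siTRIM28 (log2 fold change 1.94). That list summed to 0.784 to 2.31 CPM in siNC and 3.63 to 4.36 CPM in siTRIM28, with UPK1B at 0. The urothelial markers other than UPK1A were each under 1 CPM in every library and did not rise with it. GATA3 had a mean of 0.585 CPM in siNC and 0.249 CPM in siTRIM28, UPK2 0.269 and 0.273, and UPK3A 0.024 and 0. The higher urothelial sum therefore rested on UPK1A alone. Leukocyte, endothelial and basal lists each summed to under 1 CPM in every library, with CD3E and CDH5 at 0. The endothelial list was at 0.289 to 0.470 CPM in siNC and 0.714 to 0.929 CPM in siTRIM28, with PECAM1 as its only gene with reads. The epithelial, urothelial and endothelial sums were thus all higher in siTRIM28, without overlap, and their part in the results was not tested.

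**Figure D5:**
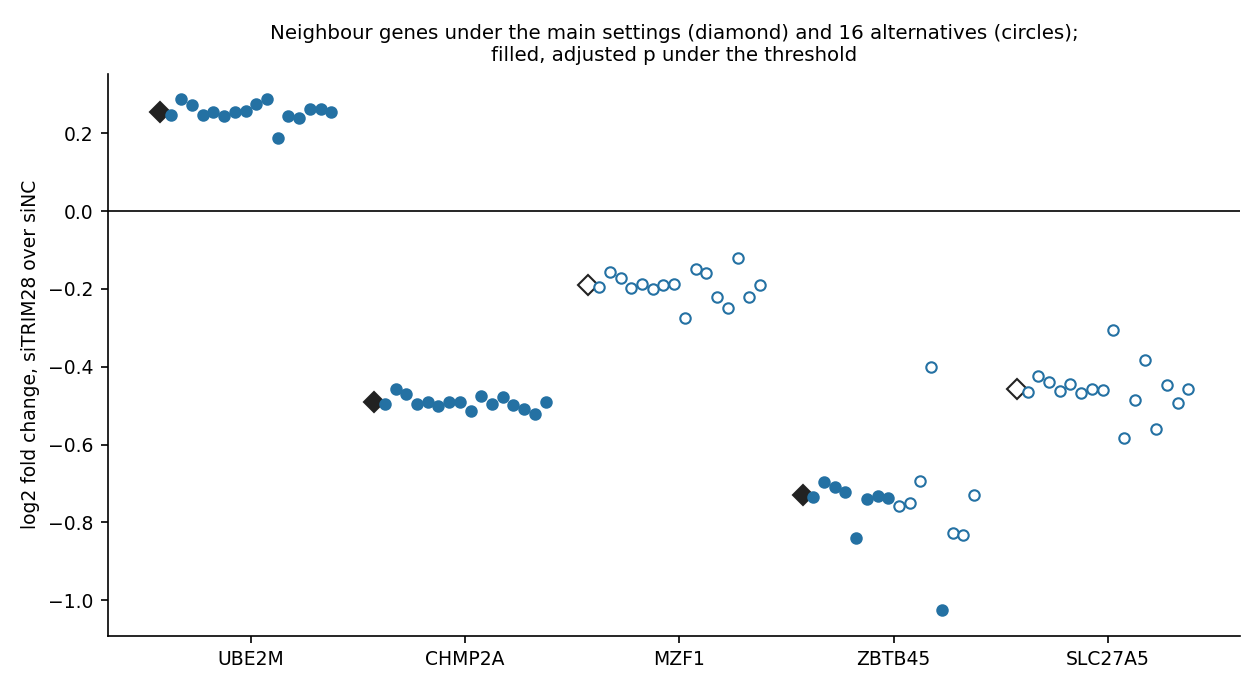
Log2 fold change (vertical axis) of the 5 neighbours under the main settings (diamonds) and 16 other settings (circles), filled where the adjusted p was under the threshold of that setting. UBE2M and CHMP2A keep their sign and their call throughout, MZF1 and SLC27A5 stay negative with open circles throughout, and ZBTB45 stays negative between -1.03 and -0.40 with 7 open circles.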

How the data were processed

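RNA-seq libraries of T24 cells (3 siNC, 3 siTRIM28) were used as gene counts deposited by the authors, with no normalization. The submitters' processing notes name fastp 0.23.1, STAR 2.7.6a and featureCounts on GRCh38. The annotation release, the strand setting and the handling of duplicate reads are not given in the sources used here. A second deposited table, of genes the authors chose as changed, was not used.

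The 18474 of 78932 genes that reached 10 counts in 3 or more libraries were fitted with edgeR 4.0.16 (TMM scaling, quasi-likelihood F test, siTRIM28 against siNC), and Benjamini-Hochberg adjustment ran over all of them with a threshold of 0.05. CPM values use TMM-scaled library sizes. DESeq2 1.42.0, limma 3.58.1 (voom), other scalings and filters, a replicate block and leave-one-out fits were the alternatives. Samples were grouped by the treatment label. Exons came from GENCODE v29 and start regions from RefSeq GRCh38.p14. Positions are those of the count table, whose ends differ from GENCODE v29 for TRIM28, UBE2M, CHMP2A and SLC27A5. Intervals are at 95%.

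Named were TRIM28, the 5 neighbours, tested genes within 100000 bases of TRIM28, genes overlapping a neighbour or named as its pseudogene, up to 2 called genes per pathway list and direction with the largest change, and for each neighbour the 2 genes most like it over the 6 libraries. Markers and some pathway genes were named outside this rule, among them RBX1, RNF7, SLC27A6, BAAT and CYP7B1. NEDD8, UBE2F and CHMP2B were added after their values were seen. The members and lists were chosen with earlier results of these data known. The p-values measure the spread between these libraries, which the labels call biological replicates without naming separate cultures or days.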

Additional observations from a re-analysis of the deposited data

How the results depend on the processing

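Over 16 alternatives each, TRIM28, UBE2M, CHMP2A, MZF1 and SLC27A5 kept the direction and the side of the threshold they had. UBE2M ranged from 0.19 to 0.29 (log2), CHMP2A from -0.52 to -0.46, MZF1 from -0.28 to -0.12 and SLC27A5 from -0.58 to -0.30. ZBTB45 stayed negative in all 16 and was past the threshold in 9. It was lost with the closer libraries of each group summed (log2 fold change -0.83; adjusted p = 0.0752, edgeR), at an adjusted p under 0.01 (-0.73), and in 5 of the 6 fits that left out a library, which ranged from -1.03 to -0.40. The neighbours called lower then numbered 1 with close pairs summed, 1 at the 0.01 threshold and 1 to 2 when a library was left out. Of the other genes within 100000 bases, the single lower call (ZNF324B) fell to 0 with DESeq2, with close pairs summed and at the 0.01 threshold, and to 0 or 1 when a library was left out; a window of 200000 bases gave 1 higher and 3 lower. The cause of these losses was not tested. The summed and leave-one-out fits also held fewer libraries, and the part of that was not tested either.

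Genes called over the whole table numbered 7723, and from 5393 (threshold 0.01) to 8130 (without siTRIM28 1) under the alternatives. No shared effect of the replicate number was seen, with correlations of same-numbered deviations of 0.05, -0.01 and 0.04. These values cannot show whether the libraries were paired in the experiment. With the replicate block 7910 genes were called and ZBTB45 had -0.74 (adjusted p = 0.0128, edgeR). A smaller prior count of 0.5 left 6 of 10 pair differences without overlap. ZBTB45, MZF1 and SLC27A5 rested on 28 to 91 reads per library. Other alternatives were chosen after seeing the data: leaving out each library gave 6 to 7 pair differences without overlap, and GENCODE v29 exonic lengths turned the log2 ratio of UBE2M over CHMP2A per length in siTRIM28 from 0.24 to -0.61.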
